A study of Arabidopsis thaliana with 22 samples.

Results

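The 82 genes described here had lower transcript levels after abscisic acid (ABA) in leaves of wild type and also in leaves of the ost1-2 sal1-8 double mutant. They were chosen on these arrays as probe sets of a single gene with a highest group mean of 4 or more, a WT change (ABA minus mock) of -1 or lower but above -5 on the log2 scale with every ABA array below every mock array, and an ost1-2 sal1-8 change of -0.6 or lower, and AT4G21870 was left out. A log2 change of -1 is a 2-fold lower level and -0.6 is a 1.52-fold lower level. They make up 0.595% of the named probe sets tested, out of 38408 probe sets on the array, and a further 188 genes met every condition in WT but had an ost1-2 sal1-8 change above -0.6. All 82 were among the probe sets tested. The highest group mean was taken over all 8 groups, and 81 of the 82 genes met the minimum of 4 in WT or ost1-2 sal1-8. AT5G14360 met it only through sal1-8 mock (mean log2 intensity 4.35, against 2.63 in ost1-2 mock, 3.83 in ost1-2 sal1-8 mock and 2.90 in WT mock).

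Arabidopsis leaves were profiled on 22 Affymetrix Arabidopsis Gene 1.0 ST arrays, which give the level of each transcript as a log2 intensity. The groups were ost1-2 sal1-8 with ABA and with mock treatment (3 arrays each), sal1-8 with ABA and mock (3 each), ost1-2 with ABA and mock (2 each) and WT with ABA and mock (3 each). ABA was sprayed on the leaves at 20 µM, and the sample labels give 45 min for the treatment although their protocol names a later harvest. The WT plants were F1 hybrids of the ecotypes Col-0 and Ler, sal1-8 is a loss of SAL1 in Col-0, ost1-2 is a loss of OST1 function in Ler, and the double mutant came from the F2 generation of a cross between them. The genotypes therefore also differ in ecotype, and the mutation and the ecotype cannot be told apart. Each sample was a leaf, and each mutant was represented by a single allele. Arrays are named by a letter, A to G, given here in the order of their sample numbers, so that the arrays of a letter are close in number, had the same treatment and include at most 1 of each genotype. Some numbers within and between the letters are not among these arrays.

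ABA is the hormone of drought, which closes stomata and slows growth while it raises stress genes and lowers many genes of cell expansion and development. OST1 is the protein kinase that carries the ABA signal in guard cells, so that ost1-2 stomata respond poorly to the hormone. SAL1 is a phosphatase that breaks down 3'-phosphoadenosine 5'-phosphate (PAP), a chloroplast signal that builds up in sal1 mutants and inhibits exoribonucleases of RNA decay. The question addressed by the double mutant is whether ABA responses that need OST1 return when PAP is high, and the single mutants show how the same genes behave with each lesion alone. The SAL1 and OST1 transcripts were not analysed here.

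The arrays of WT and ost1-2 sal1-8 chose the genes, so their values are given as a description with no test. The median change after ABA was -0.97 in ost1-2 sal1-8 and -1.51 in WT on the log2 scale, and the changes ran between -2.85 and -0.60 in ost1-2 sal1-8 and between -3.69 and -1.01 in WT. The mean level over the 82 genes, relative to each gene's mean in WT mock, was -1.06 ± 0.12 on ost1-2 sal1-8 ABA arrays and 0.04 ± 0.32 on ost1-2 sal1-8 mock arrays (SD, n = 3 each). A single ost1-2 sal1-8 mock array, F, was at -0.33, below the 0.20 and 0.24 of the other mock arrays. In WT the same mean was -1.66 ± 0.18 with ABA and 0.00 ± 0.075 with mock (SD, n = 3 each). The WT mock levels of the 82 genes lay between 2.90 and 10.1, with a median log2 intensity of 6.90, against 6.38 for the 188 other WT-lowered genes and 5.44 for all probe sets tested.

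**Figure D1:**
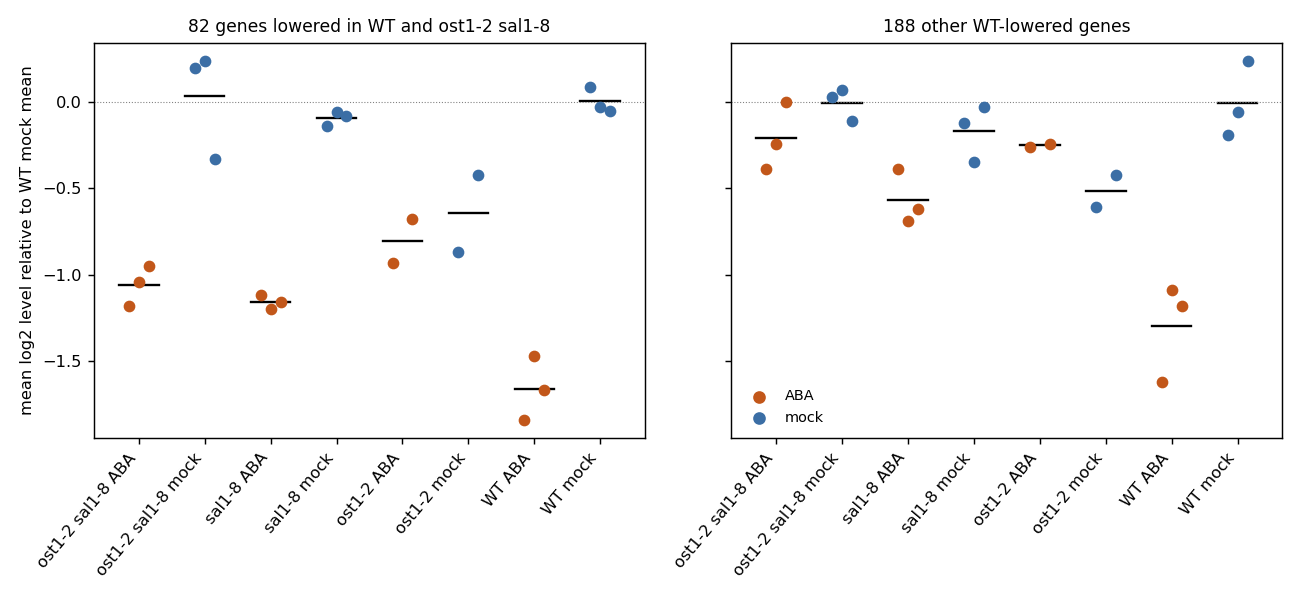
Mean log2 level of the 82 genes (left) and of the 188 other WT-lowered genes (right) on each array, relative to the WT mock mean of each gene; orange points are ABA arrays, blue points mock arrays and lines group means. The 3 sal1-8 ABA arrays sit between -1.20 and -1.12, below all 3 sal1-8 mock arrays, while the ost1-2 ABA arrays (-0.93 and -0.68) overlap in range with the ost1-2 mock arrays (-0.87 and -0.42).

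The edges of the choice were close. Just inside the ost1-2 sal1-8 limit were AT1G68400 at -0.602, ARL at -0.608 and AT1G27570 at -0.609, and just outside were AT2G12462 at -0.598, the expansin gene EXPA9 at -0.595 and AT2G28660 at -0.583. Just inside the WT limit were FAC1 at -1.005, AT1G67470 at -1.013 and AT1G69520 at -1.025, and just outside were AT4G19380 at -0.999, AT3G52520 at -0.994 and AT1G03740 at -0.992. When the genes were chosen again without each WT or ost1-2 sal1-8 array in turn, the choice held between 71 and 106 genes, of which 70 to 82 were among the 82.

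In sal1-8, whose arrays entered the choice only through the minimum level, ABA lowered 33 of the 82 genes and raised 0 of them (limma, adjusted p under 0.05 and fold above 1.5, adjusted over all probe sets tested by Benjamini-Hochberg). The fit took each gene's spread from all groups, including the WT and ost1-2 sal1-8 arrays that chose the genes. The p-values are therefore not fully independent of the choice. Of all probe sets tested, 0.733% were lowered and 1.39% were raised in sal1-8, so these 33 genes were 33 of the 101 probe sets that ABA lowered in sal1-8. Of the 188 other WT-lowered genes, 6 (3.19%) were lowered and 2 (1.06%) raised. Without AT5G14360, which met the minimum level only through sal1-8 mock, 32 of 81 genes were lowered. The change was negative in 80 of the 82 genes (97.6%), against 88.3% of the 188 genes and 53.4% of all probe sets, and its median was -0.89, against -0.41 for the 188 genes and -0.02 for all probe sets. The 82 genes had larger WT changes than the 188 genes (medians -1.51 and -1.23), and the part of this in the sal1-8 values was not tested. Every sal1-8 ABA array was below every sal1-8 mock array for 62 of the 82 genes (75.6%), against 11.2% of all probe sets and 38.8% of the 188 genes. The mean level over the 82 genes was -1.16 ± 0.042 with ABA and -0.09 ± 0.043 with mock in sal1-8 (SD, n = 3 each). The count was 15 without sal1-8 ABA replicate E and 19 without sal1-8 ABA replicate G, sal1-8 mock replicate A or sal1-8 mock replicate F. Of the 33 calls, 12 held under all 31 other fits and left-out arrays. With only the 6 sal1-8 arrays in the fit, the spread owed nothing to the arrays that chose the genes. That fit called 21 of the 82 genes lower, and 17 of these were among the 33.

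**Figure D2:**
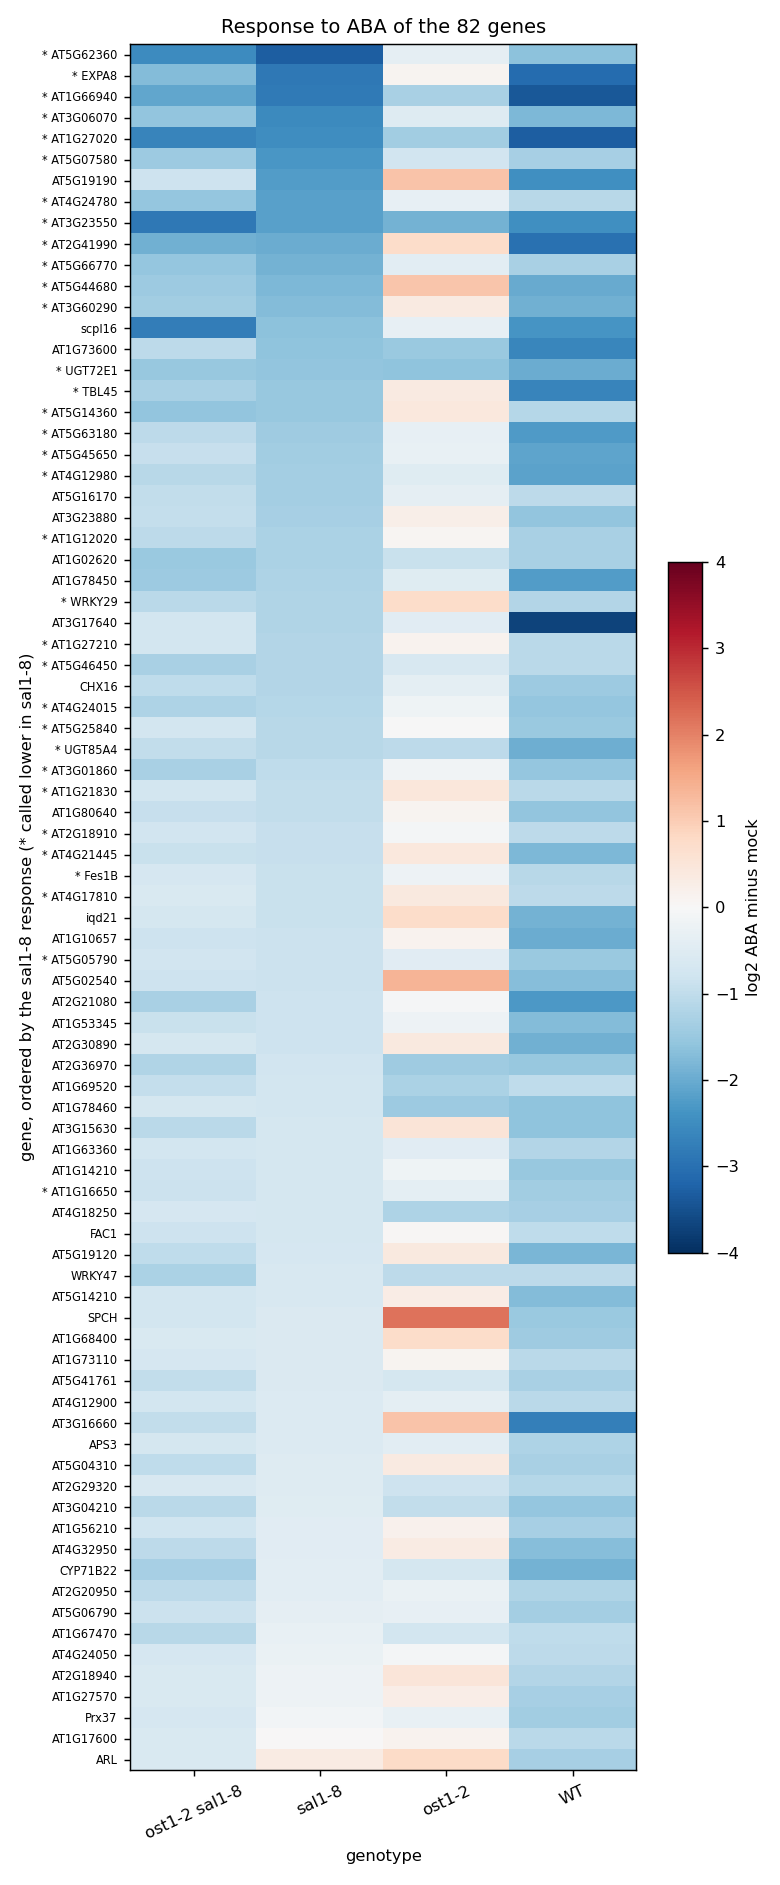
Log2 change after ABA (ABA minus mock, colour scale) of the 82 genes in ost1-2 sal1-8, sal1-8, ost1-2 and WT, ordered by the sal1-8 change; a star marks the 33 genes called lower in sal1-8. The sal1-8 column is blue for 80 genes, and the ost1-2 column is negative for 48 genes and positive for 34.

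Among the role groups made here of the 82 genes, those of the cell wall and cell surface had the lowest sal1-8 changes. This was not a trait of wall genes at large. Of 36 cell wall growth genes tested, matched by symbol, 1 was lowered and 1 raised in sal1-8, with a median change of 0.01. Roles were assigned with these values known, so the group counts are a description. An annotation was used for 47 of the 82 genes and none was used for 35, so the counts by role cover the 47 only. Of 8 wall and surface genes, 6 were lowered in sal1-8, and their median sal1-8 change was -1.54, the lowest of the groups with more than 1 gene. AT5G62360, which encodes a protein of the invertase and pectin methylesterase inhibitor family, had log2 intensities of 2.98, 2.67 and 3.86 in sal1-8 ABA, against 6.14, 7.35 and 5.90 in sal1-8 mock. All ABA arrays were thus far below all mock arrays, a 9.78-fold lower level (log2 change -3.29 ± 0.50 SE, limma adjusted p = 0.0011). In ost1-2 the gene was at 4.63 and 5.45 with ABA and at 6.03 and 4.76 with mock, and these ranges overlapped.

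EXPA8 encodes an expansin, a protein that loosens cell walls during expansion. It was at 4.20, 4.74 and 4.37 in sal1-8 ABA, against 8.07, 6.53 and 7.30 in sal1-8 mock, a 7.28-fold lower level (log2 change -2.86 ± 0.46 SE, limma adjusted p = 0.0018). In ost1-2 it was at 6.74 and 7.40 with ABA and at 6.03 and 7.86 with mock, so that the ABA arrays lay inside the mock range. AT4G24780 encodes a putative pectate lyase, an enzyme that cuts pectin. Its levels were 5.58, 5.12 and 5.11 in sal1-8 ABA, against 7.79, 7.30 and 7.25 in sal1-8 mock (log2 change -2.18 ± 0.29 SE, limma adjusted p = 0.00046). In ost1-2 it was at 6.61 and 6.23 with ABA and at 6.75 and 6.72 with mock, a change of -0.32 ± 0.35 SE that did not pass the test.

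UGT72E1, a glucosyltransferase of coniferyl alcohol, a lignin building block, had its ABA arrays below its mock arrays in every genotype. It was at 6.78, 6.98 and 7.10 in sal1-8 ABA, against 8.48, 8.94 and 8.14 in sal1-8 mock (log2 change -1.57 ± 0.29 SE, limma adjusted p = 0.0051). In ost1-2 it was at 5.73 and 6.22 with ABA, against 7.19 and 7.98 with mock, and both ABA arrays were below both mock arrays. The ost1-2 change of -1.61 ± 0.35 SE had a limma p of 0.00021 and an adjusted p of 0.11. TBL45, of a family known for adding acetyl groups to wall polymers, was lowered in sal1-8 as well (log2 change -1.52 ± 0.34 SE, limma adjusted p = 0.021), but that call ended without any of sal1-8 mock replicates A and F and sal1-8 ABA replicates E and G (adjusted p up to 0.12). The hydroxyproline-rich glycoprotein gene AT2G18910 also passed (log2 change -0.93, limma adjusted p = 0.015), with a call that ended without sal1-8 mock replicate C or F or sal1-8 ABA replicate E (adjusted p up to 0.098). The members that did not pass were the extensin-family gene AT3G16660 (-0.55, adjusted p = 0.74) and the peroxidase gene Prx37 (-0.11, adjusted p = 0.98).

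Of 5 transcription factor genes, 4 were lowered in sal1-8. AT5G07580, an ERF/AP2 factor, was at 5.74, 5.64 and 5.63 in sal1-8 ABA, against 7.94, 8.16 and 7.86 in sal1-8 mock, with little spread within either group (log2 change -2.32 ± 0.41 SE, limma adjusted p = 0.0039). In ost1-2 it was at 5.07 and 6.21 with ABA and at 5.99 and 6.83 with mock. AT5G66770, the GRAS-family factor scarecrow-like 4, was at 5.66, 5.66 and 6.16 in sal1-8 ABA, against 7.68, 7.65 and 7.85 in sal1-8 mock (log2 change -1.90 ± 0.32 SE, limma adjusted p = 0.0032). WRKY29, a factor of immune signalling, was at 5.64, 6.65 and 5.64 in sal1-8 ABA, against 6.78, 7.52 and 7.27 in sal1-8 mock. Its ABA arrays were all below its mock arrays (log2 change -1.21 ± 0.24 SE, limma adjusted p = 0.0088), and the call ended without sal1-8 ABA replicate G (adjusted p = 0.058) and with only the 6 sal1-8 arrays in the fit (adjusted p = 0.13). The C2H2 zinc finger gene AT4G17810 passed with a change of -0.89 (limma adjusted p = 0.020), and its call ended without any of sal1-8 mock replicates A and F and sal1-8 ABA replicates E and G (adjusted p up to 0.12). WRKY47, another WRKY factor, changed by -0.65 ± 0.34 SE in sal1-8 (adjusted p = 0.44), and its levels were 6.94 and 7.05 in ost1-2 ABA, against 7.66 and 8.42 in ost1-2 mock.

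Of 7 genes for kinases and receptor-like proteins, 1 passed in sal1-8, AT1G66940, a kinase-related gene. It was at 5.82, 5.30 and 5.53 in sal1-8 ABA, against 8.66, 8.13 and 8.34 in sal1-8 mock (log2 change -2.83 ± 0.38 SE, limma adjusted p = 0.00047). In ost1-2 it was at 5.04 and 5.71 with ABA and at 6.05 and 7.27 with mock, again without overlap (log2 change -1.29 ± 0.47 SE, limma adjusted p = 0.36). The other 6 had sal1-8 changes between -1.21 and -0.31, among them AT3G17640, a leucine-rich repeat protein with the lowest WT change of all 82 (-3.69). An annotation as disease resistance genes of the nucleotide-binding type was used for 3 genes, and the genes with no annotation used may hold more. Of the 3, AT5G46450 passed (log2 change -1.17, limma adjusted p = 0.032). This call ended without each of the 6 sal1-8 arrays in turn (adjusted p up to 0.19). AT1G63360 (-0.71) and AT3G04210 (-0.47) did not pass.

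Among 7 genes of proteolysis and protein turnover, 3 passed. The subtilase gene AT5G45650, for a serine protease, was at 5.96, 5.98 and 5.78 in sal1-8 ABA, against 7.75, 6.84 and 7.30 in sal1-8 mock (log2 change -1.39 ± 0.21 SE, limma adjusted p = 0.0012). Its ost1-2 levels were 7.79 and 7.37 with ABA and 7.70 and 8.07 with mock, which overlapped. The other genes that passed were the RING finger gene AT4G24015 (log2 change -1.14, limma adjusted p = 0.016), whose call ended without sal1-8 mock replicate A or C or sal1-8 ABA replicate E (adjusted p up to 0.091), and Fes1B, for a protein that binds the HSP70 chaperone (log2 change -0.89, limma adjusted p = 0.032), whose call ended without each of the 6 sal1-8 arrays in turn (adjusted p up to 0.12) and with each array centred on the common median (adjusted p = 0.082). The carboxypeptidase gene scpl16 had the second lowest ost1-2 sal1-8 change of the 82 (-2.76), and in sal1-8 it was at 3.46, 4.83 and 5.02 with ABA, against 5.52, 6.45 and 6.27 with mock. Those groups did not overlap, but the change of -1.65 ± 0.57 SE missed the threshold (limma adjusted p = 0.17).

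Metabolic genes mostly did not pass. Of 9, 1 was lowered in sal1-8, the glucosyltransferase gene UGT85A4 (log2 change -1.10 ± 0.23 SE, limma adjusted p = 0.016), a call that ended without any of sal1-8 mock replicates C and F and sal1-8 ABA replicates E and G (adjusted p up to 0.082). AT1G73600, a putative phosphoethanolamine N-methyltransferase of choline synthesis, was at 5.80, 5.51 and 5.66 in sal1-8 ABA, against 6.84, 7.36 and 7.64 in sal1-8 mock, without overlap. Its change of -1.62 ± 0.42 SE lay at the threshold (limma adjusted p = 0.050). APS3 encodes an ATP sulfurylase, which starts sulfate activation, the route to the PAP precursor. It was at 8.18, 7.85 and 7.80 in sal1-8 ABA, against 8.39, 9.13 and 7.94 in sal1-8 mock, which overlapped (log2 change -0.54, limma adjusted p = 0.46). FAC1, an AMP deaminase of purine metabolism, changed by -0.69 (limma adjusted p = 0.23). The 1 gene for which an annotation as a transporter was used, the cation/proton exchanger gene CHX16, changed by -1.17 (limma adjusted p = 0.21). Of 4 genes for DNA, RNA and other binding proteins 2 passed. These were the DNA glycosylase gene AT5G44680 (log2 change -1.81, limma adjusted p = 0.026), whose call ended without any of sal1-8 mock replicates A and C and sal1-8 ABA replicates E and G (adjusted p up to 0.15) and with only the 6 sal1-8 arrays in the fit (adjusted p = 0.052), and the armadillo repeat gene AT1G27210 (log2 change -1.18, limma adjusted p = 0.0053), whose call ended with only the 6 sal1-8 arrays in the fit (adjusted p = 0.084).

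Of the 35 genes with no annotation used, 14 were lowered in sal1-8. The lowest was AT3G06070, at 7.12, 7.24 and 7.66 in sal1-8 ABA, against 10.55, 9.94 and 9.16 in sal1-8 mock (log2 change -2.55 ± 0.38 SE, limma adjusted p = 0.00093). AT1G27020 was at 5.70, 5.57 and 5.19 in sal1-8 ABA, against 7.48, 8.31 and 8.11 in sal1-8 mock (log2 change -2.48 ± 0.43 SE, limma adjusted p = 0.0039), and its ABA arrays were below its mock arrays in every genotype. AT5G63180 (log2 change -1.42, limma adjusted p = 0.0012) and AT5G25840 (log2 change -1.12, limma adjusted p = 0.0016) also kept their calls under all 31 other fits and left-out arrays. AT2G41990 passed (log2 change -1.99, limma adjusted p = 0.014), but not without sal1-8 mock replicate F (adjusted p = 0.072) or sal1-8 ABA replicate E (adjusted p = 0.098). AT3G23550 passed (log2 change -2.16, limma adjusted p = 0.023) with its ABA arrays at 4.28, 6.19 and 4.48 and its mock arrays at 6.93, 7.41 and 7.09, and its call ended without any sal1-8 array but ABA replicate E (adjusted p up to 0.11). AT5G19190, with a change of -2.25 ± 0.60 SE and no overlap between ABA and mock arrays in sal1-8, missed the threshold (limma adjusted p = 0.061).

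The 2 genes with a positive sal1-8 change were AT1G17600 (0.01) and ARL (0.34 ± 0.36 SE, limma adjusted p = 0.78). ARL, or ARGOS-like, promotes cell expansion. It was at 8.76, 8.89 and 8.33 in sal1-8 ABA and 7.90, 9.14 and 7.92 in sal1-8 mock, which overlapped, and at 5.95, 6.05 and 5.15 in WT ABA, against 7.04, 6.76 and 7.32 in WT mock. Of the 3 growth and development genes, the putative auxin-responsive gene AT4G12980 passed in sal1-8 (log2 change -1.36, limma adjusted p = 0.022), and its call ended without any of sal1-8 mock replicate A and sal1-8 ABA replicates E and G (adjusted p up to 0.16).

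**Figure D3:**
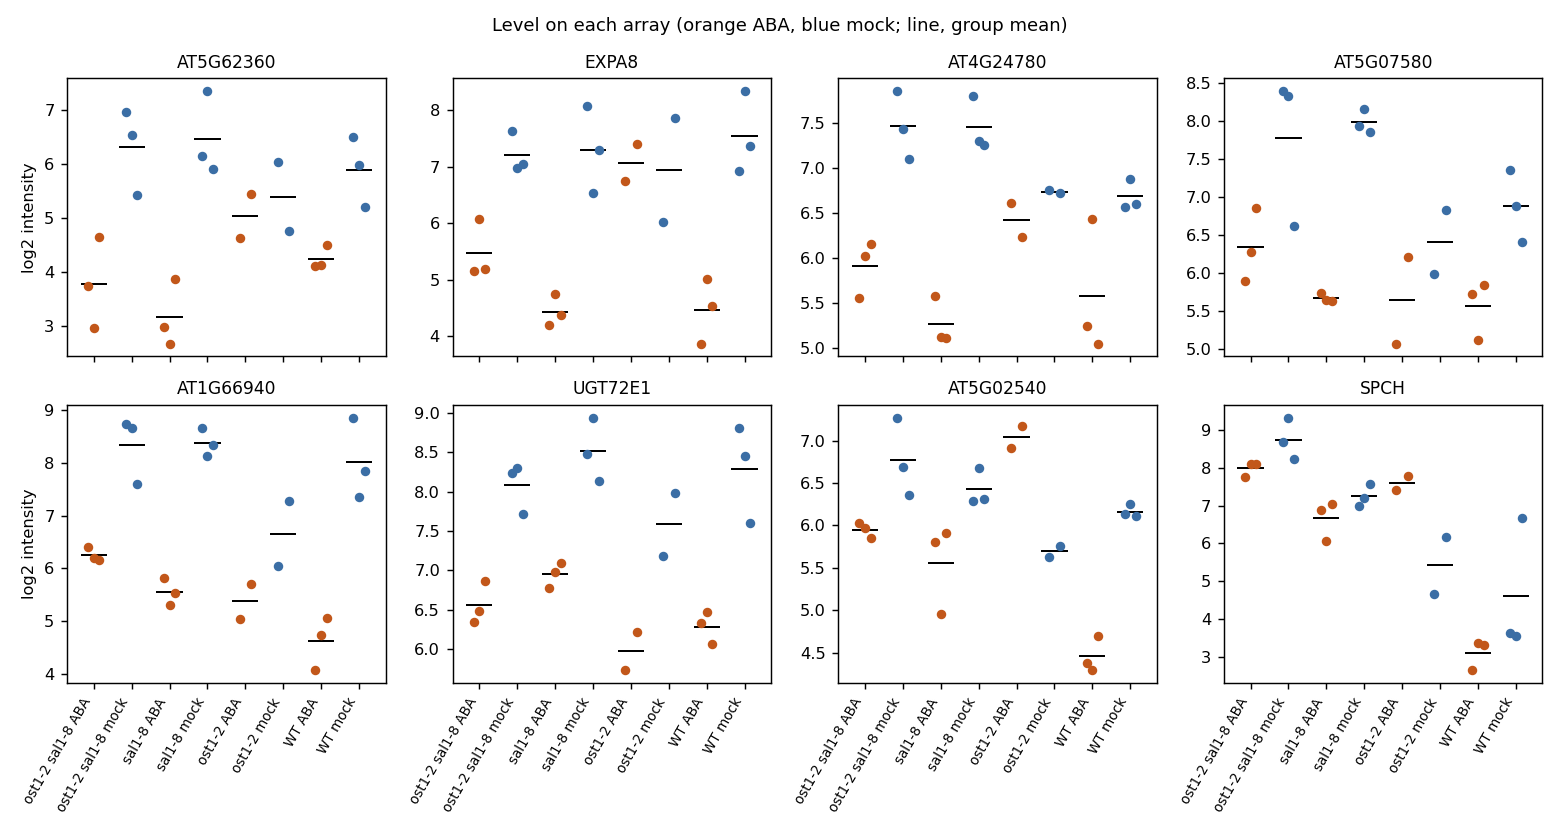
Log2 intensity on every array of AT5G62360, EXPA8, AT4G24780, AT5G07580, AT1G66940, UGT72E1, AT5G02540 and SPCH; orange points are ABA arrays, blue points mock arrays and lines group means. ABA and mock arrays of sal1-8 are apart in the first 7 panels, the ost1-2 arrays are apart downward for AT1G66940, UGT72E1 and AT4G24780, and apart upward for AT5G02540 and SPCH.

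In ost1-2, whose arrays likewise entered only through the minimum level, 0 of the 82 genes passed in either direction (limma, adjusted p under 0.05 and fold above 1.5). Of all probe sets tested, 0.0145% were lowered and 0.0218% raised in ost1-2, which had 2 arrays per group. The spread in this fit also came from all groups, and with only the ost1-2 arrays in the fit 0 of the 82 genes passed as well. Relative to WT mock, the mean level over the 82 genes was -0.80 ± 0.18 with ABA and -0.65 ± 0.32 with mock in ost1-2 (SD, n = 2 each). The ost1-2 level was thus below that of WT mock without ABA, and the part of this in the ost1-2 changes was not tested. At an unadjusted p under 0.05, 13 of the 82 genes were lower (15.9%, against 4.51% of all probe sets) and 6 were higher (7.32%, against 4.83%). The change was negative in 48 genes and positive in 34 (58.5% negative, against 52.7% of all probe sets), with a median of -0.18 and the middle of the genes between -0.47 and 0.34 (quartiles). Both ost1-2 ABA arrays were below both mock arrays for 28 genes (34.1%), against 24.7% of all probe sets. The 188 other WT-lowered genes had a median ost1-2 change of 0.22, negative in 48 (25.5%) and positive in 140 (74.5%). By unadjusted limma p under 0.05, 5 of the 188 (2.66%) were lower and 25 (13.3%) higher. For 19 of the 188 (10.1%) both ABA arrays were below both mock arrays. With array weights 4 genes were lowered and 2 raised, and without WT mock replicate F 1 was lowered and 1 raised. Without sal1-8 ABA replicate E 0 were lowered and 1 raised.

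The lowest ost1-2 changes were those of AT3G23550 (-1.88), UGT72E1 (-1.61), AT1G73600 (-1.50), AT1G78460 (-1.44) and AT2G36970 (-1.42), each with an unadjusted limma p between 0.00021 and 0.0089. AT3G23550 was at 3.01 and 2.68 in ost1-2 ABA, against 3.92 and 5.52 in ost1-2 mock, and AT2G36970 was at 4.78 and 4.89 in ost1-2 ABA, against 5.79 and 6.71 in ost1-2 mock. Neither gene's groups overlapped. AT1G78460 and the heme-binding protein gene AT1G78450, also among the 82, are next to each other in the RefSeq gene order (TAIR10.1), and no other pair of the 82 was adjacent.

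The highest ost1-2 changes were those of SPCH (2.16), AT5G02540 (1.35), AT5G19190 (1.15), AT3G16660 (1.13) and AT5G44680 (1.11). SPCH encodes SPEECHLESS, the basic helix-loop-helix factor that starts the stomatal lineage. It was at 7.40 and 7.77 in ost1-2 ABA, against 4.67 and 6.17 in ost1-2 mock, without overlap (log2 change 2.16 ± 0.72 SE, limma adjusted p = 0.31). In sal1-8 it was at 6.89, 6.07 and 7.03 with ABA and 6.99, 7.20 and 7.57 with mock, which overlapped. In ost1-2 sal1-8 it was at 7.76, 8.11 and 8.11 with ABA and 8.69, 9.32 and 8.23 with mock, and in WT at 2.64, 3.37 and 3.32 with ABA and 3.62, 3.54 and 6.67 with mock. The highest of the WT values was that of mock replicate F, and the other WT arrays held the lowest SPCH levels of the series. SPCH was not among the genes chosen again without WT mock replicate F, nor without ost1-2 sal1-8 mock replicate C. In whole leaves, fewer cells of a lineage and less RNA per cell cannot be told apart.

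The changes of sal1-8 and ost1-2 were set against each other directly by the difference of the responses. This difference was negative in 70 of the 82 genes (85.4%), against 166 of the 188 other WT-lowered genes (88.3%) and 50.3% of all probe sets, with a median of -0.87. By limma 2 of the 82 genes passed as lower and 0 as higher, against 0.0435% and 0.123% of all probe sets, and at an unadjusted p under 0.05, 38 were lower (46.3%, against 6.19%) and 0 were higher (against 6.73%). The 188 genes had a median difference of -0.69, with 60 (31.9%) lower at an unadjusted p under 0.05. The genes that passed were AT5G02540 and WRKY29. AT5G02540, which encodes a protein with an NAD(P)-binding fold, was at 6.91 and 7.17 in ost1-2 ABA, against 5.63 and 5.76 in ost1-2 mock. In sal1-8 it was at 5.80, 4.96 and 5.91 with ABA, against 6.29, 6.68 and 6.31 with mock. The ABA arrays were thus above the mock arrays in ost1-2 and below them in sal1-8. By itself neither change passed (limma adjusted p = 0.10 in ost1-2 and 0.058 in sal1-8). The difference of the responses was -2.21 ± 0.37 SE (limma adjusted p = 0.014). Without ost1-2 mock replicate A the adjusted p was 0.095, and without ost1-2 ABA replicate G it was 0.15. WRKY29 was at 5.74 and 5.91 in ost1-2 ABA, against 5.18 and 5.04 in ost1-2 mock (difference of the responses -1.93 ± 0.38 SE, limma adjusted p = 0.042), and its call ended in 16 of 31 other fits and left-out arrays, with an adjusted p of 0.29 without ost1-2 ABA replicate G. The count of genes ran between 0 and 5 with 1 array left out, and it was 24 with array weights. Across the 82 genes the sal1-8 and ost1-2 changes had a Pearson r of 0.19 and a Spearman rho of 0.14, which is a description, since genes that share arrays are not replicates.

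**Figure D4:**
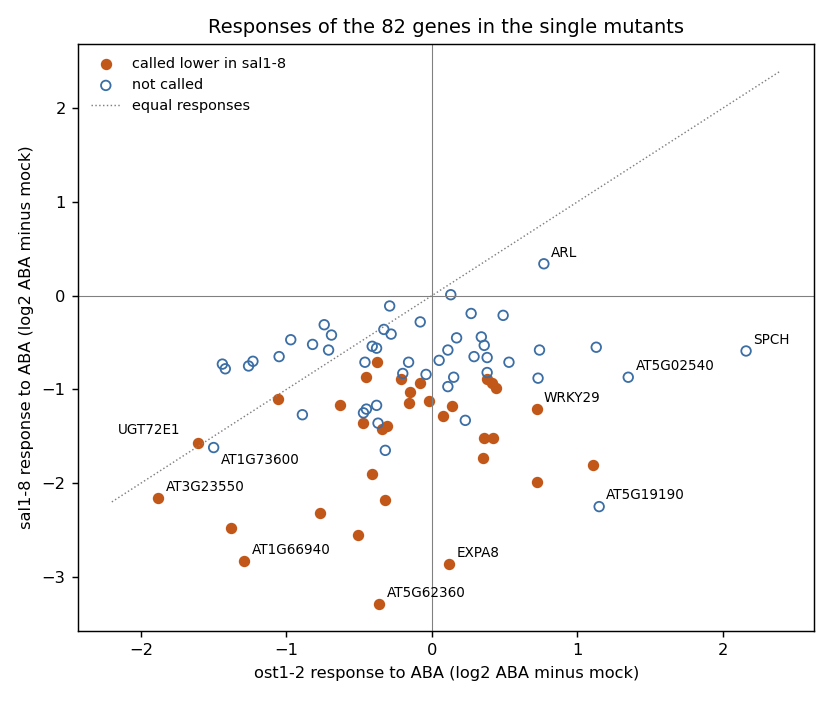
Change after ABA in sal1-8 (vertical axis, log2) against that in ost1-2 (horizontal axis, log2) for the 82 genes; filled points are called lower in sal1-8, open points are not, and the dotted line marks equal changes. Below the dotted line lie 70 genes, SPCH and AT5G02540 farthest to the right, and UGT72E1 and AT1G73600 sit close to the line.

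The single mutants already differed without ABA. Of the 82 genes, 30 were higher and 8 lower in sal1-8 mock than in ost1-2 mock (limma, adjusted p under 0.05 and fold above 1.5), against 13.9% and 13.4% of all probe sets, and the median difference was 0.63, against -0.09. Without AT5G14360, 29 were higher and 8 lower. Relative to WT mock, the mean level over the 82 genes was -0.09 in sal1-8 mock and -0.65 in ost1-2 mock. The difference thus lay more in a low ost1-2 level than in a high sal1-8 level. For the 188 other WT-lowered genes these means were -0.17 and -0.52. WT mock arrays helped to choose the genes, so these means are a description. Of the 188 other WT-lowered genes 50 (26.6%) were higher and 16 (8.51%) lower. Of 8 cell type markers 3 were lower in sal1-8 mock, the guard cell gene BLUS1 (log2 difference -1.42, limma adjusted p = 3.9e-05), the epidermis gene FDH (-1.46, adjusted p = 0.016) and the mesophyll gene SBPASE (-0.60, adjusted p = 0.030), and their part in these counts was not tested. The split of the calls depended on the scaling: with each array centred on the common median it was 25 higher and 13 lower, and that centring put the median difference of all probe sets at -0.32. Without ost1-2 mock replicate A, 13 genes were higher, and without ost1-2 mock replicate C, 1 was lower. Within number run A the median of sal1-8 mock minus ost1-2 mock was 0.68 with 60 genes higher, and within run C it was 0.34 with 53 genes higher. These comparisons are also of Col-0 with Ler, which cannot be told apart from the mutations.

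AT5G19190 had the largest such difference, at 9.60, 8.62 and 8.61 in sal1-8 mock, against 4.81 and 6.31 in ost1-2 mock (log2 difference 3.38 ± 0.68 SE, limma adjusted p = 0.0010). WRKY29 was at 6.78, 7.52 and 7.27 in sal1-8 mock, against 5.18 and 5.04 in ost1-2 mock (log2 difference 2.08 ± 0.27 SE, limma adjusted p = 1.3e-05). TBL45 was at 8.53, 8.51 and 8.67 in sal1-8 mock, against 5.61 and 7.29 in ost1-2 mock (log2 difference 2.12 ± 0.38 SE, limma adjusted p = 0.00037). For these 3 genes all sal1-8 mock arrays were above all ost1-2 mock arrays. ARL (log2 difference 1.94, limma adjusted p = 0.0014) and AT2G41990 (log2 difference 2.59, limma adjusted p = 0.00039) were higher in sal1-8 mock too, as was Prx37 (log2 difference 3.01 ± 0.97 SE, limma adjusted p = 0.025), whose call ended without any of sal1-8 mock replicates A and F and ost1-2 mock replicates A and C (adjusted p up to 0.14). The other way round, AT1G27570 was at 4.00, 4.08 and 4.70 in sal1-8 mock, against 6.54 and 6.80 in ost1-2 mock (log2 difference -2.41 ± 0.38 SE, limma adjusted p = 0.00012). In ost1-2 sal1-8 mock AT1G27570 was at 7.59, 7.79 and 7.84, above every sal1-8 array.

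After ABA, 24 of the 82 genes were lower and 10 higher in sal1-8 than in ost1-2 (limma, adjusted p under 0.05 and fold above 1.5), against 10.7% and 11.5% of all probe sets, with a median difference of -0.28, against -0.09. Of the 188 other WT-lowered genes 57 (30.3%) were lower and 21 (11.2%) higher. Of the 8 markers BLUS1 (log2 difference -1.69, limma adjusted p = 6.2e-06), SBPASE (-0.96, adjusted p = 0.0017) and the guard cell gene FAMA (-0.77, adjusted p = 0.020) were lower in sal1-8 ABA, and their part was not tested. EXPA8 was at 4.20, 4.74 and 4.37 in sal1-8 ABA, against 6.74 and 7.40 in ost1-2 ABA (log2 difference -2.63 ± 0.52 SE, limma adjusted p = 0.0011). The subtilase gene AT5G45650 was at 5.96, 5.98 and 5.78 in sal1-8 ABA, against 7.79 and 7.37 in ost1-2 ABA (log2 difference -1.67 ± 0.24 SE, limma adjusted p = 4.8e-05). AT3G17640 was at 6.41, 5.94 and 6.82 in sal1-8 ABA, against 8.22 and 8.72 in ost1-2 ABA (log2 difference -2.08 ± 0.39 SE, limma adjusted p = 0.00069). In all 3 genes the ranges were apart. AT1G27570 (log2 difference -2.87, limma adjusted p = 2.1e-05) was lower in sal1-8 with ABA as with mock. Without ost1-2 ABA replicate G, 15 genes were lower and 4 higher. Without ost1-2 ABA replicate D 2 were higher, and without sal1-8 ABA replicate E 6 were higher. Within number run G, the only run with ABA arrays of both mutants, the median was -0.59 with 57 genes lower.

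**Figure D5:**
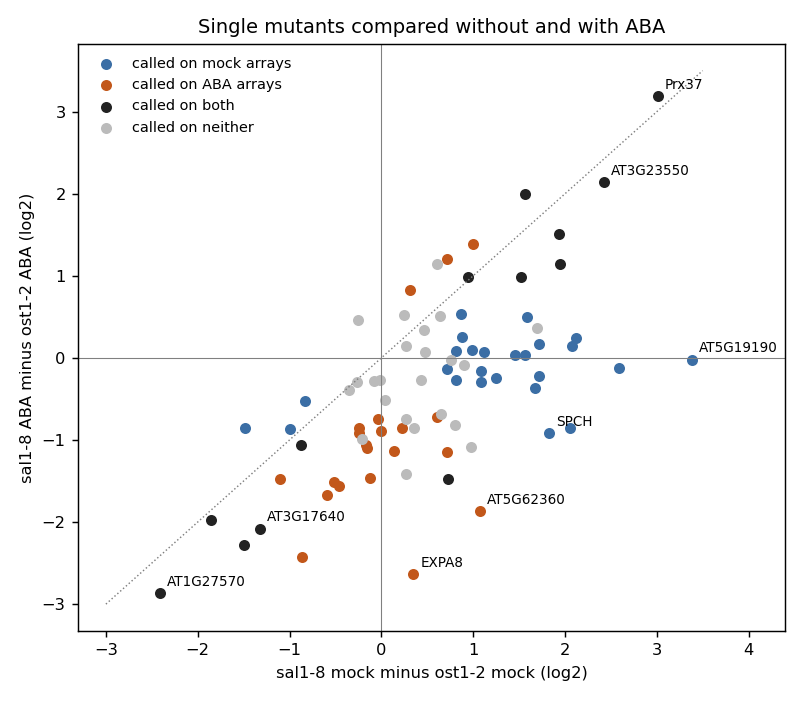
Level in sal1-8 minus level in ost1-2 on mock arrays (horizontal axis, log2) and on ABA arrays (vertical axis, log2) for the 82 genes; colours give the arrays on which the difference was called and the dotted line marks equal differences. Most points lie to the right of 0 (56 genes) and below 0 (53 genes), and Prx37 and AT1G27570 lie far out at opposite ends in both comparisons.

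Lists of genes from related processes were set beside the 82 genes. Of 36 cell wall growth genes tested, 1 was lowered (EXPA8) and 1 raised by ABA in sal1-8, with a median change of 0.01, and of 14 biotic defence genes 1 was lowered (WRKY29) and 0 raised, with a median of 0.15. Of 14 auxin response genes and 32 photosynthesis genes 0 passed (medians -0.05 and -0.04), and of 25 nutrient and sugar transport genes 0 were lowered and 2 raised (median 0.24). Of 8 cell cycle and histone genes 0 were lowered and 1 raised, of 5 cuticle and lipid genes 0 and 1, and of 4 cytokinin response genes 1 and 0. Of 4 glucosinolate and sulfur, 4 gibberellin and brassinosteroid, 2 circadian and light and 1 ethylene, jasmonate and cold genes 0 passed. The aquaporin and ABA receptor lists matched the symbols of 0 probe sets tested, which does not show that such genes were absent. All the lists are matched by gene symbol and so hold few of each family.

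The tissue was checked by cell type markers, of which few were measured. Unlogged intensities of a cell type's markers were summed and the sum put on the log2 scale, so the brightest marker weighs most. For the 3 of 22 mesophyll markers, RCA, SBPASE and PRK, this log2 sum was between 12.07 and 12.87 over all arrays. PRK, the dimmest of these, had a mean of 7.39 in ost1-2 sal1-8 mock and 7.64 in ost1-2 sal1-8 ABA, against 9.64 in WT mock. RCA (11.93 against 12.02) and SBPASE (10.87 against 11.16) differed less between ost1-2 sal1-8 mock and WT mock. For the 3 of 17 guard cell markers (FAMA, BLUS1 and CHX20) the log2 sum was between 7.38 and 7.56 in sal1-8 ABA and 7.61 and 7.92 in sal1-8 mock. It was between 8.41 and 8.47 in ost1-2 ABA and 8.45 and 8.56 in ost1-2 mock, and between 6.86 and 7.32 in WT ABA and 7.95 and 8.30 in WT mock. In ost1-2 sal1-8 it was between 7.89 and 8.31 with ABA and 8.07 and 8.42 with mock. The epidermis marker FDH (1 of 13) and the vasculature marker SWEET11 (1 of 13) were measured as well, and the lowest group mean of the 8 markers was a log2 intensity of 5.12. By limma none of these 8 markers passed between ABA and mock in sal1-8 or ost1-2, while BLUS1 and SBPASE were lower in sal1-8 than in ost1-2 on mock and on ABA arrays, FDH on mock arrays and FAMA on ABA arrays. In WT the changes after ABA were -1.19 for FAMA, -1.13 for BLUS1 and -0.58 for CHX20. They were -0.21, 0.09 and -0.64 in ost1-2 sal1-8, and neither set was tested. Guard cell markers that fall after ABA in WT cannot tell guard cell content from a response to ABA. The part of cell type content in the values of the 82 genes was not tested.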

How the data were processed

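Leaves of ost1-2 sal1-8, sal1-8, ost1-2 and WT with ABA or mock treatment were profiled on 22 arrays. Before deposit the authors ran robust multi-array averaging (background correction, quantile normalization, median polish) with oligo 1.28.0 under R 3.1.0, so each of the 38408 deposited values per array is a log2 intensity. All 22 columns were used. Samples were grouped by their labels.

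Of these probe sets, 16722 carry the name of 1 gene, 759 of several, and 20927 are unnamed here. The 13780 named probe sets with the highest group mean were tested with limma 3.58.1 in R 4.3.3, fitting the 8 group means together, and p-values were adjusted by Benjamini-Hochberg. Each gene's spread in this fit thus came partly from the WT and ost1-2 sal1-8 arrays that chose the genes. Calls needed an adjusted p below 0.05 with more than a 1.5-fold change. The study's methods describe biological replicates with a leaf for each. The arrays of a group each have a different letter, so p-values measure the spread between leaves together with any difference between letters. Their precision is limited by how many arrays there are. The sal1-8 mock arrays have the letters A, C and F, as do the WT and ost1-2 sal1-8 mock arrays that chose the genes. The ost1-2 mock arrays have A and C only, and the part of this was not tested. The code was tested on simulated data.

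The 82 genes, the 14 gene lists and the marker lists were chosen with earlier results of these data known. Genes were named by rank of change in each genotype, by list, by closeness to the thresholds and by family. Further genes named by role (AT5G66770, AT5G45650, AT4G17810, AT2G18910, TBL45, UGT85A4, APS3, CHX16, AT1G27210, AT4G24015, Fes1B, AT4G12980, AT1G78450, AT5G63180 and AT5G25840), AT5G14360, the cell type markers given with values and the role groups were chosen after their values were seen. Roles came from the symbols and descriptions in the gene table and the study's gene annotation. Of the 82 loci, 81 were in the RefSeq gene table. The alternatives were no minimum fold, the 10000 brightest probe sets, all named probe sets, 1 per gene, array weights, only the arrays compared, robust empirical Bayes with a trend, quantile normalization again, centring, the number run as a random block, an ost1-2 sal1-8 limit of -1, and leaving out each array. Choosing the genes again without single arrays, and with the minimum level read from WT and ost1-2 sal1-8 alone, was added after seeing the data. Sequences were not used here.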

Additional observations from a re-analysis of the deposited data

Results flagged for a closer look

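The test of the difference between the sal1-8 and ost1-2 responses to ABA passed for 2 of the 82 genes, both lower in sal1-8. AT5G02540 had a difference of -2.21, with a change of -0.87 in sal1-8 and 1.35 in ost1-2, each in the direction of all its arrays. Neither of these changes passed by itself (limma adjusted p = 0.058 and 0.10). WRKY29 had a difference of -1.93, with a change of -1.21 in sal1-8, which passed, and 0.72 in ost1-2, which did not (limma adjusted p = 0.0088 and 0.43). Both rest on 2 ost1-2 arrays per treatment, and both calls ended without ost1-2 ABA replicate G (limma adjusted p = 0.15 for AT5G02540 and 0.29 for WRKY29). No group held enough arrays for a test of single outlying arrays.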

How the results depend on the processing

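The count of 33 genes lowered by ABA in sal1-8 ran between 15 and 39 with 1 of the 22 arrays left out, was 21 with only the 6 sal1-8 arrays in the fit, and stayed within 1.5 times under the other 11 settings, the highest being 47 with array weights and 22 of 38 genes with an ost1-2 sal1-8 limit of -1. With the genes chosen again without each WT or ost1-2 sal1-8 array it ran between 28 and 37. Centring moved the median sal1-8 change of all probe sets to 0.11 and left 27 calls. The ost1-2 count of 0 became 4 lowered and 2 raised with array weights and 0 to 1 in each direction with an array left out. The count of 2 for the difference of the responses became 4 with only the arrays compared, 24 with array weights, 1 with quantile normalization again, centring or the limit of -1, and 0 to 5 with an array left out. For sal1-8 mock minus ost1-2 mock, 13 to 31 genes were higher and 1 to 9 lower with an array left out, and 13 were lower with centring and 3 with the limit of -1. For sal1-8 ABA minus ost1-2 ABA, 15 to 27 were lower and 2 to 11 higher with an array left out, and 9 were lower with the limit of -1. Fits without an ost1-2 array leave 1 array in that group, which is assumed to vary like the others. With the number run as a random block (correlation 0.0162) 33 genes were lowered in sal1-8. Each run holds a single treatment, so this fit cannot separate the run from ABA. No called gene changed direction under any of these settings in the comparison in which it was called. With only the 6 sal1-8 arrays in the fit, 17 of the 33 genes were among the 21 called, and the calls of the others of the 33 ended. Among the calls that ended there were those of AT2G18910 (limma adjusted p = 0.062), AT5G46450 (adjusted p = 0.052), AT4G12980 (adjusted p = 0.073), AT3G23550 (adjusted p = 0.085), AT2G41990 (adjusted p = 0.053) and AT4G17810 (adjusted p = 0.081).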
